A study of Homo sapiens with 4 samples.

Results

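The 10 genes described here encode the core machinery of DNA methylation and of Polycomb repressive complex 2 (PRC2), and they were taken by name from the 60675 genes counted in RNA-seq libraries of LNCaP cells. They are the maintenance factors DNMT1 and UHRF1, the de novo methyltransferases DNMT3A and DNMT3B, the dioxygenases TET1, TET2 and TET3, and the PRC2 subunits EZH2, SUZ12 and EED. With the KDM5 inhibitor CPI-455, UHRF1 was 5.29-fold lower, TET3 was 4.23-fold lower and SUZ12 was 2.62-fold lower than under vehicle. EED and DNMT3B were higher and TET2 was lower, each by less than the 2-fold needed for a call. DNMT1, DNMT3A, TET1 and EZH2 were not called either. The 3 genes called lower are 30% of the 10, where 21.3% of all tested genes were called lower.

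LNCaP is an androgen-responsive prostate cancer line that was grown from a lymph node metastasis. It is 1 line, and the libraries say nothing of other prostate cells. All of the cells were in medium with hormone-depleted serum and received 1 nM R1881, a synthetic androgen, for 72 h. In 1 group R1881 was given with vehicle, and in the other with 50 µM CPI-455, an inhibitor of the KDM5 enzymes that remove methyl groups from lysine 4 of histone H3. Each group has 2 libraries, which the study describes as biological replicates. The SD given is the spread between them, while SE, intervals and p-values rest on a spread that is in part pooled over all tested genes. No group without androgen and no other dose or time was analysed here.

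DNA methylation is copied to the new strand after replication by DNMT1, which is brought to hemimethylated CpG sites by UHRF1. DNMT3A and DNMT3B set methylation at unmethylated CpG sites, and the TET enzymes oxidise methylcytosine, a step towards its removal. PRC2 methylates lysine 27 of histone H3 through its catalytic subunit EZH2, while SUZ12 holds the complex together and EED reads the mark that PRC2 makes. In prostate cancer these systems are known for hypermethylated promoters such as that of GSTP1 and for high EZH2 in advanced tumours.

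The libraries differed in more than the treatment. The vehicle libraries held 19623553 and 20690819 fragments counted on genes and the CPI-455 libraries 9522920 and 5401588, so that 3 counts corresponded to 0.137 to 0.142 CPM (TMM-scaled counts-per-million) in the former and 0.337 to 0.595 CPM in the latter. The nuclear RNA MALAT1 took 0.0884% to 0.114% of the counts under vehicle and 4.95% to 6.49% under CPI-455, and mitochondrially encoded genes took 1.91% to 2.43% and 0.967% to 1.24%. The part of these shifts in the results was not tested, and the treatment and the library composition cannot be told apart. Of 10 markers of LNCaP cells, 6 fell and none rose past the call, where 21.3% of all tested genes were called lower and 21.0% higher, with a summed level of 886 to 961.3 CPM under vehicle and 386.6 to 444.4 CPM under CPI-455. The epithelial keratin KRT18, 1 of the 4 markers not called, had 1437 and 1515 counts under vehicle against 408 and 287 under CPI-455. These are unscaled counts from libraries of unlike depth. Of 23 markers of other cell types, 15 had at most 10 counts in every library, and of the 4 basal markers the keratins KRT5 and KRT15 were at 0 in all 4 libraries. The basal markers summed to 0.189 and 0.275 CPM under vehicle against 1.24 and 1.19 CPM under CPI-455. Those of stroma summed to 5.49 and 4.49 CPM against 10.5 and 10.7 CPM. The 1 tested stroma marker, COL1A1, was called higher at a log2 fold change of 1.003, just past the 2-fold limit. Neuroendocrine markers summed to 25.7 and 29.0 CPM against 29.8 and 45.4 CPM, though of the 4 tested 1 was called lower and none higher. Immune markers summed to 0.189 and 0.229 CPM against 1.01 and 0, and endothelial markers to 1.14 and 1.60 against 0.45 and 0. The part of these markers in the results was not tested.

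A gene was called where its false discovery rate (FDR, the Benjamini-Hochberg adjusted p over the 17600 tested genes in edgeR) was below 0.05 and its change at least 2-fold. Each of the 10 genes passed the filter on low counts. Of the 10, 3 were called lower under CPI-455 (30%), where 21.3% of all tested genes were called lower. None was called higher, where 21.0% of all tested genes were, and in either direction 42.4% of all tested genes were called. At an FDR below 0.05 and any fold, 4 were lower and 2 were higher, and 4 had an FDR of 0.05 or above. Over all tested genes, 32.8% were lower and 29.8% were higher by that rule, 62.6% in all. The CPI-455 libraries were both below the vehicle libraries in 6 of the 10 genes and both above in 3, and over all tested genes in 42.8% and 39.1%. These genes have long exons, and among the 8321 tested genes with exons at least as long as the shortest of them, 27.4% were called lower and 13.6% higher. The share called lower is therefore near the background. The median log2 fold change (CPI-455 over vehicle, so that negative is lower with the inhibitor) was -0.17 over the 10 genes and -0.04 over all tested genes. In bulk RNA, fewer cells that express a gene and less of its RNA per cell cannot be told apart.

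**Figure D1:**
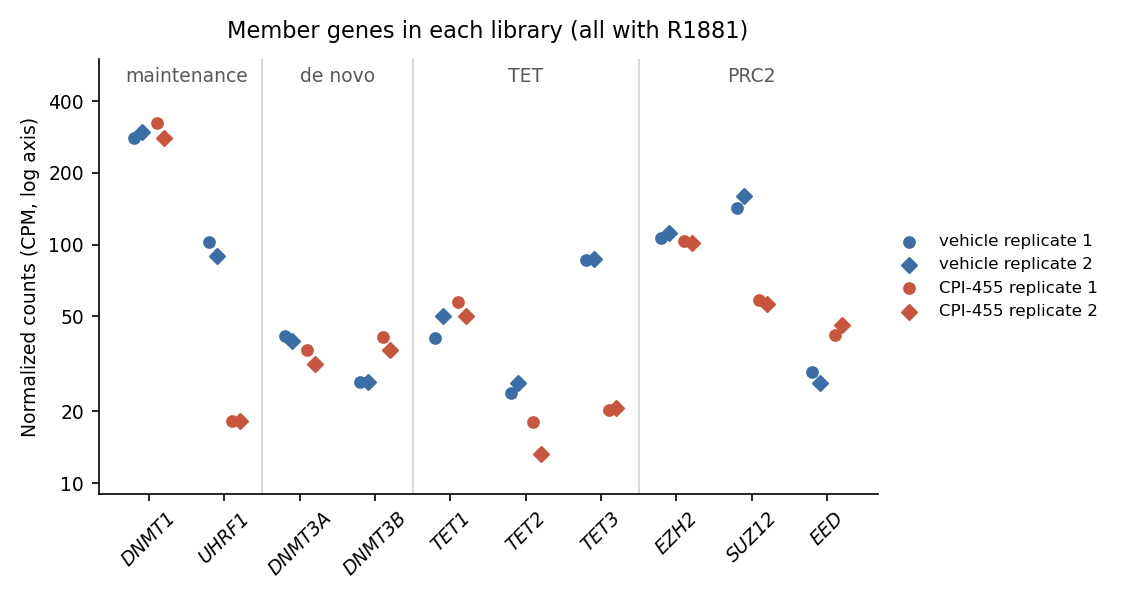
CPM of the 10 genes in each of the 4 libraries, on a log axis, with 1 point per library coloured by group. UHRF1, TET3 and SUZ12 show a wide gap between the 2 vehicle and the 2 CPI-455 libraries, while the points of DNMT1 overlap.

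The promoters of the 3 genes called lower and of EZH2, a partner of SUZ12 whose level was not called, are shown for the letters they share. Each is the RefSeq window on GRCh38.p14 from 250 bases before to 30 bases after the start site, read on the gene's strand, at chr19:4909251-4909530 on the plus strand for UHRF1, chr2:73984660-73984939 on the plus strand for TET3, chr17:31936757-31937036 on the plus strand for SUZ12 and chr7:148884262-148884541 on the minus strand for EZH2. Capitals mark letters known to be bound by the E2F factors that drive S-phase genes (TTCCCGC or TTGGCGC, on either strand) and GC boxes (GGGCGG, on either strand).
UHRF1: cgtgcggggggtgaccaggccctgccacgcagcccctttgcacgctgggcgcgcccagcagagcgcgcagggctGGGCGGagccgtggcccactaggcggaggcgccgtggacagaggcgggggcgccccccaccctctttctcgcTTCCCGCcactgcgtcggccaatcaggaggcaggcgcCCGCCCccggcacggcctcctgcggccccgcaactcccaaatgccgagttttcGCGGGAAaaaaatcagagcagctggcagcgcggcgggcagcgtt
TET3: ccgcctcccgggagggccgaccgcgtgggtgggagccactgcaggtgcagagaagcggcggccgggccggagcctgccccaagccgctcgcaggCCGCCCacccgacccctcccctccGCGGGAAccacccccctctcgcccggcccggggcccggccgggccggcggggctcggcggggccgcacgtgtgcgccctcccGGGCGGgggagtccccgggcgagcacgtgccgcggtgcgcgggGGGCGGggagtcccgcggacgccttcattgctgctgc
SUZ12: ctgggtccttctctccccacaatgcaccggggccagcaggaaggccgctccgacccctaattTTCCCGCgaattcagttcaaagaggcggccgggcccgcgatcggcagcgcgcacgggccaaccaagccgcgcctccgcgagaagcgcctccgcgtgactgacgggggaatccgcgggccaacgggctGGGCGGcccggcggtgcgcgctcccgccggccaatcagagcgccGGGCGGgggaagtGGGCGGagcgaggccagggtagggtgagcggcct
EZH2: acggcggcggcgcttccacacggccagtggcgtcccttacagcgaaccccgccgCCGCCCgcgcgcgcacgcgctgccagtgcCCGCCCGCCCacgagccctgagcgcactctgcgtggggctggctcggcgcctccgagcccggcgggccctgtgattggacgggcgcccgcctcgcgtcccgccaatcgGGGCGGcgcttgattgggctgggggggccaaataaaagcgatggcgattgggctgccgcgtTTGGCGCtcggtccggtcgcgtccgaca

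In windows that run to 50 bases after the start, the E2F letters were found in 4 of the 10 genes, these 4, and in 9.23% of 35116 RefSeq windows of the same length. In UHRF1 they begin 104 and 14 bases before the start, in TET3 132 bases before, in SUZ12 188 bases before and in EZH2 3 bases after it. The letters were thus present in the windows of the 3 genes called lower and, of the 7 genes not called, in that of EZH2 alone. Both E2F strings hold a CpG site, and the share over all windows was not matched for CpG content. A link between the letters and the calls was not tested. A GC box was found in 6 of the 10 and in 45% of all windows, the CCAAT box (CCAAT, either strand) in 5 of the 10 and in 34.6%, and the ETS letters (CCGGAAG, either strand) in none of the 10 and in 10.3%. The UHRF1, TET3, SUZ12 and EZH2 windows held 36, 45, 40 and 46 CpG sites, and those of DNMT3A, TET2 and DNMT1 held 46, 35 and 30, all above the upper quartile of 28 over all windows. The windows of EED, TET1 and DNMT3B held 16, 10 and 3. The TET3 window lies before the start of the gene as counted in the deposited files, which is at 73986404. For DNMT3B the only RefSeq window lies 17467 bases from the start of the main transcript in GENCODE, so the letters at that start were not searched. The motifs are matches of letters, and no binding or methylation was measured.

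UHRF1, the protein that reads hemimethylated DNA for DNMT1, had the largest fall of the 10. The gene lies on GRCh38 at chr19:4903080-4962154 on the plus strand, with 5145 bases of exon in 19 blocks. It had 2172 and 1965 counts in the vehicle libraries and 162 and 92 in the CPI-455 libraries, or 102.8 and 89.97 CPM against 18.22 and 18.24 CPM. Both CPI-455 libraries lay far below both vehicle libraries and almost coincided. The log2 fold change was -2.40 (SE 0.15, 95% interval -2.74 to -2.06, edgeR FDR = 2.08e-06). DNMT1, the maintenance methyltransferase that UHRF1 serves (chr19:10133345-10231286, minus strand), had 279.6 and 297.7 CPM under vehicle and 324.9 and 280.4 CPM under CPI-455. Its groups overlapped, with a log2 fold change of 0.07 (95% interval -0.19 to 0.33, edgeR FDR = 0.623). The interval leaves out a change of 2-fold in either direction, and the sign turned under some scalings and filters, with -0.12 from library totals. With exon lengths taken into account, the UHRF1 transcript was at 0.700 and 0.575 of the DNMT1 level under vehicle and at 0.107 and 0.124 under CPI-455, a ratio 5.52-fold lower. Such a ratio is taken within a library and does not depend on how libraries are scaled. With 2 libraries a group an exact two-sided permutation test of a ratio cannot go below p = 0.333, so the ratios carry no test.

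UHRF2, the paralog of UHRF1, had 68.46 and 61.72 CPM under vehicle and 35.09 and 39.46 CPM under CPI-455. Its log2 fold change of -0.81 (edgeR FDR = 0.001) missed the 2-fold limit and came to -0.25 (edgeR FDR up to 0.189) with a smooth dependence on the length and GC content of exons removed from each library. The ratio of UHRF1 to UHRF2 per exon length went from 2.90 and 2.81 to 1.00 and 0.891. The genes whose 4 centred log2 CPM values lay nearest to those of UHRF1 were CANT1, a calcium-activated nucleotidase, at a Euclidean distance of 0.042, ZFTA at 0.061 and PYGO1 at 0.095. Their log2 fold changes were -2.36, -2.46 and -2.48, and that of PYGO1 was -1.85 with the length and GC dependence removed. This is a likeness over 4 libraries.

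The de novo methyltransferases showed no called change. DNMT3B (chr20:32762385-32809356, plus strand) had 26.65 and 26.56 CPM under vehicle and 41.05 and 36.29 CPM under CPI-455. Both CPI-455 libraries were above both vehicle libraries, with a log2 fold change of 0.54 (SE 0.16, 95% interval 0.19 to 0.90, edgeR FDR = 0.0131), under 2-fold. DNMT3A (chr2:25227855-25342590, minus strand) had 41.57 and 39.29 CPM under vehicle and 36.10 and 31.53 CPM under CPI-455. Its CPI-455 libraries were the lower ones, but its log2 fold change of -0.25 (95% interval -0.60 to 0.09, edgeR FDR = 0.182) did not pass the test. The ratio of DNMT3B to DNMT3A per exon length was 1.67 and 1.76 under vehicle and 2.95 and 2.99 under CPI-455, a 1.74-fold higher ratio with groups that did not overlap.

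Among the TET dioxygenases TET3 was the gene called. TET3 (chr2:73986404-74108176, plus strand, 12271 bases of exon) had 1817 and 1905 counts under vehicle and 181 and 104 under CPI-455, or 86.02 and 87.23 CPM against 20.35 and 20.62 CPM. The 2 libraries of each group lay close together and the groups were far apart. The log2 fold change was -2.08 (SE 0.14, 95% interval -2.40 to -1.76, edgeR FDR = 3.06e-06). TET2 (chr4:105145875-105279816, plus strand) had 23.86 and 26.28 CPM under vehicle and 17.99 and 13.29 CPM under CPI-455. It was lower in both CPI-455 libraries with a log2 fold change of -0.66 (SE 0.21, 95% interval -1.13 to -0.19, edgeR FDR = 0.0197), which missed the 2-fold limit and came to -0.27 (edgeR FDR = 0.29) once the length and GC dependence was removed. TET1 (chr10:68560656-68694482, plus strand) had 40.81 and 50.00 CPM under vehicle and 57.35 and 50.17 CPM under CPI-455. The lowest CPI-455 library was just above the highest vehicle library, and the log2 fold change was 0.25 (95% interval -0.11 to 0.60, edgeR FDR = 0.195), or 0.82 (edgeR FDR = 9.22e-04) with that dependence removed.

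With vehicle TET3 was the most abundant of the TET transcripts per exon length, at 7.06 ± 0.07 CPM per kilobase of exon (SD, n = 2), above TET1 at 4.89 ± 0.70 and TET2 at 1.52 ± 0.10. With CPI-455 the order was TET1 at 5.79 ± 0.55, TET3 at 1.67 ± 0.02 and TET2 at 0.949 ± 0.202. The ratio of TET3 to TET1 was 1.59 and 1.32 under vehicle and 0.269 and 0.311 under CPI-455, which is 5.02-fold lower. The summed CPM of the TET genes went from 150.7 and 163.5 to 95.7 and 84.07.

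In PRC2, the scaffold SUZ12 fell while the catalytic subunit EZH2 was not called. SUZ12 (chr17:31937018-32001045, plus strand, 6547 bases of exon) had 3021 and 3488 counts under vehicle and 523 and 285 under CPI-455, or 143.0 and 159.7 CPM against 58.81 and 56.51 CPM. Both CPI-455 libraries were below both vehicle libraries by more than the spread within either group. The log2 fold change was -1.39 (SE 0.12, 95% interval -1.67 to -1.11, edgeR FDR = 1.33e-05). With the length and GC dependence removed it was -0.84 (edgeR FDR = 1.29e-04), so that the 2-fold call was lost. SUZ12 also has a pseudogene, SUZ12P1 (chr17:30709299-30790908). Its exons have 3776 bases at 49.0% GC, beside 6547 bases at 38.3% in SUZ12, and how much sequence the 2 genes share was not measured. SUZ12P1 had 515 and 502 counts under vehicle and 487 and 287 under CPI-455. It was called higher with a log2 fold change of 1.24 (edgeR FDR = 7.42e-05). Fragments that align to several places were not counted, so how reads were split between SUZ12 and SUZ12P1 is uncertain for both.

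EZH2 (chr7:148807383-148884321, minus strand), the methyltransferase of the complex, had 106.3 and 111.7 CPM under vehicle and 103.9 and 101.3 CPM under CPI-455. Its CPI-455 libraries were just below the vehicle ones, and the log2 fold change was -0.09 (95% interval -0.34 to 0.17, edgeR FDR = 0.534). That sign turned to 0.27 (edgeR FDR = 0.0431) with the length and GC dependence removed and to 0.089 under upper-quartile scaling. EED (chr11:86244544-86278813, plus strand), which binds methylated lysine 27, had 29.26 and 26.19 CPM under vehicle and 41.72 and 46.20 CPM under CPI-455. It was higher in both CPI-455 libraries with a log2 fold change of 0.66 (SE 0.16, 95% interval 0.31 to 1.01, edgeR FDR = 0.00484), under 2-fold, and it came to 1.22 (edgeR FDR = 5.89e-05), past the call, with that dependence removed.

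The core subunits of PRC2 assemble in fixed proportion, and the ratios between their transcripts differed between the groups. SUZ12 was at 0.929 and 0.988 of the EZH2 level per exon length under vehicle and at 0.391 and 0.385 under CPI-455, a 2.47-fold lower ratio. SUZ12 to EED went from 5.24 and 6.54 to 1.51 and 1.31, and EED to EZH2 went from 0.177 and 0.151 to 0.259 and 0.294. In none of these ratios did the groups overlap. The summed CPM of the PRC2 genes was 278.6 and 297.6 under vehicle and 204.4 and 204 under CPI-455.

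**Figure D2:**
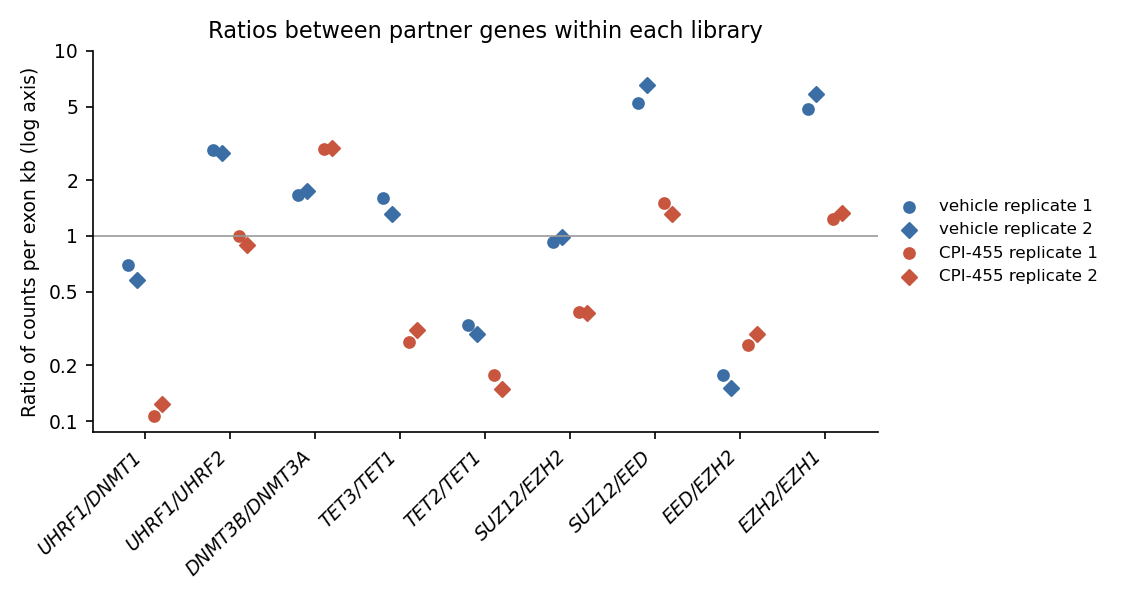
Ratios of levels per exon length between partner genes within each library, on a log axis, with 1 point per library coloured by group. UHRF1 to DNMT1, TET3 to TET1 and SUZ12 to EZH2 are lower in both CPI-455 libraries, and DNMT3B to DNMT3A and EED to EZH2 are higher.

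Per exon length, DNMT1 was the highest of the 10 under vehicle at 29.5 ± 1.3 CPM per kilobase of exon (SD, n = 2), followed by EZH2 at 24.1 ± 0.8 and SUZ12 at 23.1 ± 1.8, whose libraries overlapped. UHRF1 was next at 18.7 ± 1.8, and the others lay between 7.06 and 1.52. With CPI-455 the first places were held by DNMT1 at 30.9 ± 3.2 and EZH2 at 22.7 ± 0.4. SUZ12 at 8.81 ± 0.25 overlapped DNMT3B at 8.35 ± 0.73, and EED at 6.27 ± 0.45 overlapped TET1 at 5.79 ± 0.55. UHRF1 had gone from the fourth to the seventh place at 3.54, and TET3 from the fifth to the ninth.

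**Figure D3:**
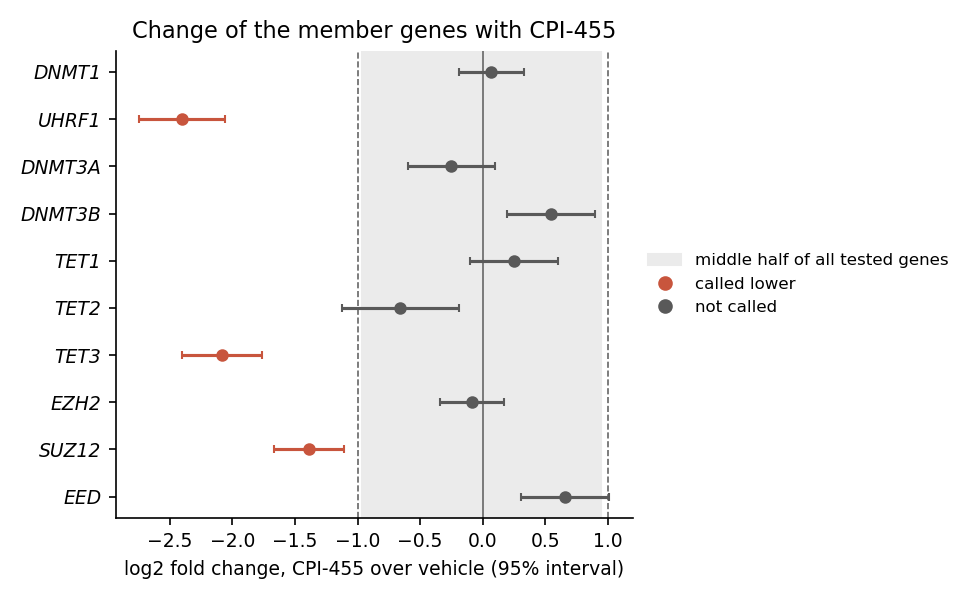
Log2 fold change (CPI-455 over vehicle) of each of the 10 genes from edgeR with its 95% interval, beside a grey band for the interquartile range of all 17600 tested genes. UHRF1, TET3 and SUZ12 lie beyond the 2-fold line on the lower side and no gene lies beyond it on the higher side.

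The wider machinery was described by lists of genes. Of 26 partners of DNA methylation, 25 were tested, 6 fell and 3 rose, with a median log2 fold change of -0.19. These are 24% and 12% of those tested, beside 21.3% and 21.0% of all tested genes. ZBTB38, which binds methylated DNA, had 78.45 and 83.01 CPM under vehicle and 4.84 and 3.57 CPM under CPI-455 (log2 fold change -4.22, edgeR FDR = 6.64e-07). QSER1, known to shield CpG-rich regions from de novo methylation together with TET1, fell by 2.41 on the log2 scale (edgeR FDR = 2.80e-06), and NSD1, which sets a histone mark read by DNMT3A, fell by 2.37 (edgeR FDR = 7.52e-07). GADD45A, a stress gene tied to demethylation, rose by 1.70, OGT, an enzyme that binds the TET proteins, by 1.28, and CDCA7, a partner of the remodeller HELLS, by 1.26. HELLS itself and TDG, the glycosylase that removes oxidised methylcytosine, had log2 fold changes of 0.68 and 0.87 and were not called, but were called at 1.24 and 1.34 with the length and GC dependence removed.

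Of 12 partners of PRC2, 12 were tested, 2 fell (16.7%) and 3 rose (25%), beside 21.3% and 21.0% of all tested genes, with a median of 0.19. EZH1, the other catalytic subunit, had 718 and 647 counts under vehicle and 1163 and 597 under CPI-455, or 33.99 and 29.62 CPM against 130.8 and 118.4 CPM. Both CPI-455 libraries were above both vehicle libraries, and the log2 fold change was 1.97 (SE 0.14, edgeR FDR = 3.28e-06). EZH2 was at 4.83 and 5.83 times the EZH1 level per exon length under vehicle and at 1.23 and 1.32 times under CPI-455. The Polycomb-like proteins PHF1 and PHF19, which guide PRC2 to CpG-rich DNA, rose by 1.90 and 1.18, while LCOR, whose locus also encodes a PRC2 cofactor, and the histone-binding subunit RBBP4 fell by 1.97 and 1.14. RBBP4 shares 1706 exon bases with another gene, fragments there were not counted, and its fold change of -0.60 with the length and GC dependence removed was not called. The call of PHF19 was lost when libraries were scaled by their totals and without CPI-455 replicate 1, where it was at 0.94. JARID2, an accessory subunit, had a log2 fold change of -0.34 (edgeR FDR = 0.0516), and the demethylases of the mark, KDM6A and KDM6B, had -0.23 (edgeR FDR = 0.174) and 0.75 (edgeR FDR = 0.00287). None of these last 3 was called, and KDM6A turned to 0.28 with the length and GC dependence removed.

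PRC1, which compacts chromatin marked by PRC2, and the deubiquitinase complex that opposes it were listed with 27 genes, of which 6 fell and 3 rose (median -0.56), which is 22.2% and 11.1% beside 21.3% and 21.0% of all tested genes. CBX6, a reader of the PRC2 mark, fell by 2.66 on the log2 scale, ASXL2 by 2.65 and BCOR by 1.42. PCGF1, the subunit that with BCOR forms a variant PRC1, rose by 2.86, RING1 by 1.35 and ASXL1 by 1.08, the last 2 with calls that were lost under some alternatives. The 19 genes that supply S-adenosylmethionine, the methyl donor, and 2-oxoglutarate, the cosubstrate of the TET enzymes, had 4 that fell and 1 that rose (median -0.49), which is 21.1% and 5.26% beside the same 21.3% and 21.0%. MAT2A, which makes S-adenosylmethionine, had 852.1 and 860.8 CPM under vehicle and 58.14 and 72.77 CPM under CPI-455, a log2 fold change of -3.72 (edgeR FDR = 3.72e-07). IDH1, which makes 2-oxoglutarate, fell by 1.63, OGDH, which uses it, by 1.21, and AHCY, which clears the product of methylation, by 1.14. D2HGDH, which turns D-2-hydroxyglutarate into 2-oxoglutarate, rose by 2.38.

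UHRF1, DNMT1 and EZH2 are also genes of dividing cells, so 26 genes of S phase were set beside them. Of these, 9 fell (34.6%) and 1 rose (3.85%), beside 21.3% and 21.0% of all tested genes, with a median of -0.83. E2F7, a repressor among the E2F factors, fell by 3.47, FEN1, a nuclease of replication, by 2.66, and CCNE1, a cyclin of S-phase entry, by 1.76. E2F1 fell by 1.14, from 84.1 ± 5.7 to 38.0 ± 3.0 CPM (SD, n = 2). The helicase subunits MCM5 and MCM2 rose by 1.07 and fell by 1.03, and the calls of E2F1 and of both were lost under some alternatives. The proliferation marker MKI67 had a log2 fold change of -0.91 (edgeR FDR = 2.21e-04), under the 2-fold limit, and was called at -1.10 with library totals. The part of cell division in the level of UHRF1 was not tested.

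**Figure D4:**
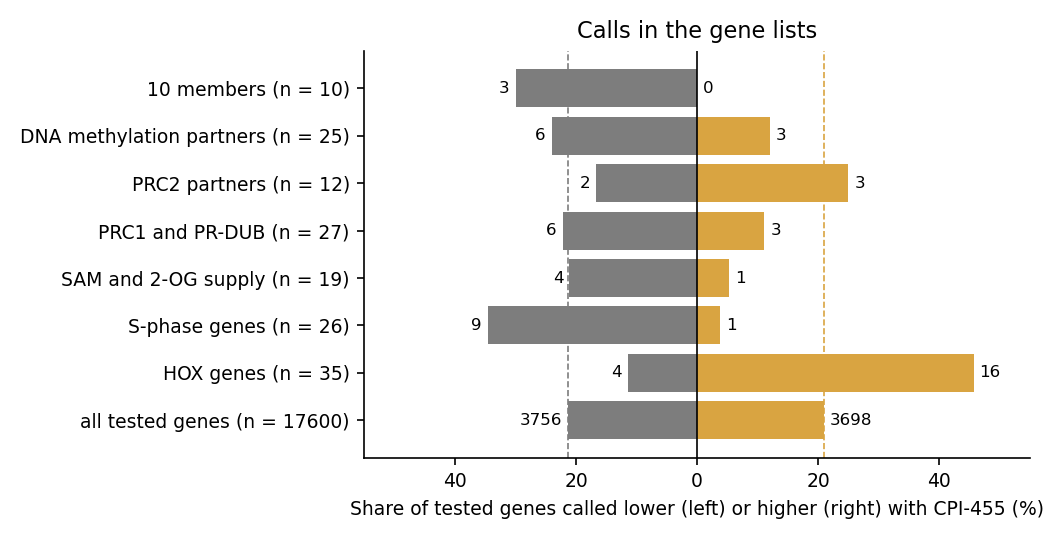
Percent of the tested genes of each list that were called lower (grey, to the left) or higher (gold, to the right), with the counts as numbers and dashed lines at the shares over all tested genes, 21.3% and 21.0%. The S-phase list leans to the lower side with 9 against 1 and the HOX list to the higher side with 16 against 4.

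Genes that these systems are known to silence were read from 4 lists. Silencing in these cells was not measured, and several of the genes were expressed under vehicle. APC had a mean of 111.2 CPM there, CDKN2A 110.2 CPM and HOXB13 37.53 CPM, while others such as HOXA2, at 1.21 CPM, were low. The lists are therefore no readout of silencing. HOX genes, the classic targets of Polycomb, had 35 of 39 tested, of which 16 rose (45.7%) and 4 fell (11.4%), beside 21.0% and 21.3% of all tested genes (median 0.93). In the HOXA, HOXB, HOXC and HOXD clusters 4, 4, 5 and 3 rose and 1 fell in each. HOXC9 had 318 and 221 counts under vehicle and 858 and 429 under CPI-455, a log2 fold change of 2.85 (edgeR FDR = 3.52e-06), and HOXA4 rose by 2.66. HOXC12, with 47 and 74 counts against 1 and 0 and a call lost without vehicle replicate 2, HOXA7, which fell by 2.47, and HOXB13, the prostate lineage factor, which fell by 2.01, were among the genes called lower. The tested HOX genes are short, with a median of 2458 bases of exon beside 4292 over all tested genes. With the length and GC dependence removed, 19 HOX genes were called in either direction in place of 20. That count does not split the directions, so it does not bear on the lean. The part of exon length in the lean to the higher side was not tested. Of the 39 HOX genes, 24 share exon bases with another gene. Of the 13 tested genes without shared bases, 5 were higher, beside 21.0% of all tested genes. Counting did not use strand, so an antisense transcript of the same stretch cannot be told apart. HOXC12 passed the filter through the vehicle libraries, so its call is a description and not support for a direction.

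Of 12 genes known to be repressed by EZH2 in prostate cancer, 11 were tested, 4 fell (36.4%) and none rose (median -0.76), beside 21.3% and 21.0% of all tested genes. The adhesion gene CDH1 had 957 and 869 counts under vehicle and 50 and 64 under CPI-455, or 45.31 and 39.79 CPM against 5.62 and 12.69 CPM. The CPI-455 libraries thus lay well apart. Its log2 fold change was -2.30 (edgeR FDR = 1.40e-04), and it ranged from -2.96 to -1.76 with 1 library left out. The signalling ligand WNT5A and the transcription factor RUNX3 fell by 1.84 and 1.41. Of 14 genes often methylated in prostate cancer, 13 were tested, 4 fell and 4 rose (30.8% each, median 0.15), beside the same 21.3% and 21.0% of all tested genes. APC, ABCB1 and SFRP1 fell by 2.70, 1.70 and 1.55, RASSF1, HIC1 and CDKN2A rose by 1.57, 1.52 and 1.13, the last 2 with calls lost under some alternatives. GSTP1, the best known of them, had 62.73 and 72.8 CPM against 109.8 and 84.27 CPM, with a log2 fold change of 0.53 (edgeR FDR = 0.0146) that was under 2-fold and came to 0.042 (edgeR FDR = 0.787) with the length and GC dependence removed. Germline genes that DNA methylation keeps silent were mostly at the limit of detection. Of 32 such genes, 17 had under 10 counts in every library and 5 were at 0 in all 4, and the 32 summed to 898 and 812 counts under vehicle and 128 and 62 under CPI-455, or 42.5 and 37.2 CPM against 14.4 and 12.3 CPM. The 11 that were tested passed the filter through the vehicle libraries, though 1 called gene also had at least 10 counts in every library. The 8 called lower among them (72.7%, beside 21.3% of all tested genes) are therefore a description and not support for a direction. MAGEA6, for example, had 94 and 96 counts against 7 and 0. MAGEA3 and MAGEA6 are near-identical copies and their counts are uncertain.

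**Figure D5:**
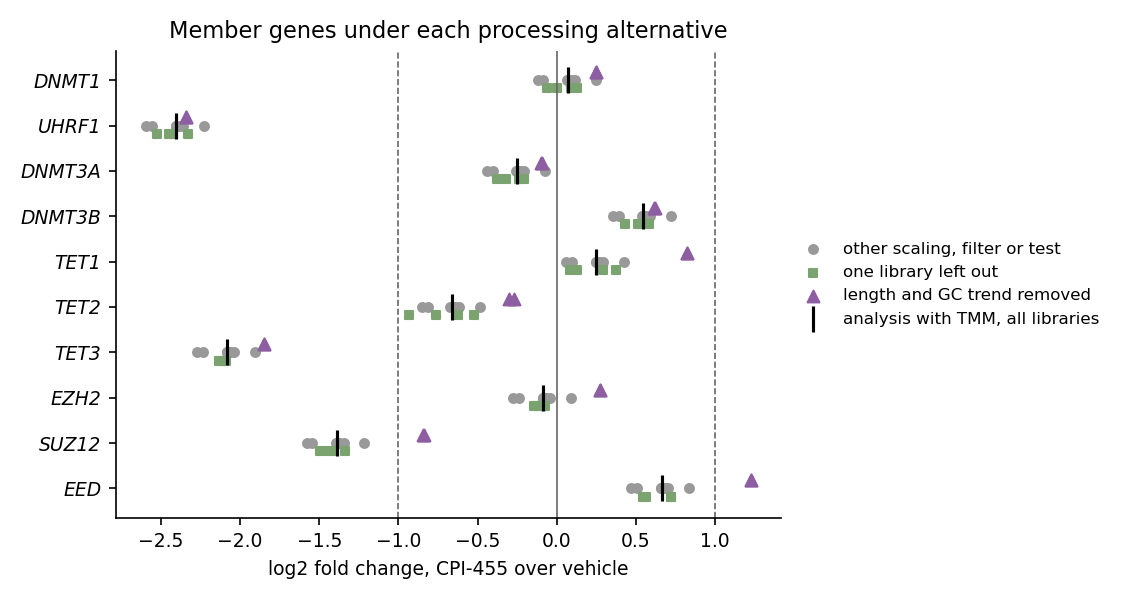
Log2 fold change of each of the 10 genes under the main settings and 15 alternatives, with points marked by kind of alternative. UHRF1 stays between -2.59 and -2.23 and TET3 between -2.27 and -1.85, while SUZ12 at -0.84 and EED at 1.22 cross the 2-fold line when the length and GC dependence is removed.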

How the data were processed

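How RNA was selected for the libraries and whether they keep strand is not given in the sources used here. The authors trimmed the reads (TrimGalore), mapped them to GRCh38 (STAR) and used featureCounts 1.5.0-p1 with Ensembl release 83 to obtain counts of fragments per gene. These counts were deposited for each library separately, with no scaling. Per the file headers, counting ignored strand and left out fragments that mapped to several places or genes. GENCODE release 44 (56558 of 60675 genes found) gave symbols and types, and RefSeq gave promoters.

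Groups were taken from the sample titles. Libraries were scaled by TMM, with factors of 1.06 to 1.08 (vehicle) and 0.936 (CPI-455), and filterByExpr at 10 counts kept 17600 genes. edgeR 4.0.16 (R 4.3.3) compared CPI-455 against vehicle by quasi-likelihood, with no covariates and Benjamini-Hochberg adjustment. CPM are TMM-scaled, and levels per exon length divide them by kilobases of merged exon. Intervals are at 95%, and the limit of 3 counts covers counting error only. Alternatives were DESeq2 1.42.0, other scalings and filters, left-out libraries, a replicate block, and removal of a smooth dependence on the length and GC content of exons (mgcv 1.9.3). The test was also run on simulated counts with few changed genes and no shift in library composition. That check does not cover shifts as wide as those seen here.

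The 10 genes and the other lists were chosen with earlier results of these data known. Named from the lists were the 3 called genes that changed most each way (mean log2 CPM of at least 1), besides EZH1, UHRF2, JARID2, KDM6A, KDM6B, TDG, HELLS, MKI67, E2F1, MCM2 and GSTP1. The patterns nearest to UHRF1 were sought where the mean log2 CPM reached 3. AHCY and the marker genes given singly were named after their values were seen. Some marker genes are not reported here. The study calls the libraries biological replicates without saying how the cultures were kept apart. The p-values therefore rest on the spread between these libraries, in part pooled over all tested genes.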

Additional observations from a re-analysis of the deposited data

How the results depend on the processing

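UHRF1 and TET3 stayed called lower in each of the 15 alternatives, and SUZ12 in 13 of 15. The number of the 10 genes called lower ranged from 2 to 3 and the number called higher from 0 to 1. With a smooth dependence on the length and GC content of exons removed, with or without the replicate block, SUZ12 came to -0.84 and lost its call, EED came to 1.22 and gained one, so that 1 gene was called higher, and EZH2 turned to 0.27 and KDM6A to 0.28 (0.29 with the block). EZH2 also turned to 0.089 with upper-quartile scaling. DNMT1 turned to -0.12 with library totals and to -0.085 without the filter, and leaving out 1 library at a time gave -0.061 (without CPI-455 replicate 1) to 0.13. The cause was not tested. Scaling moved the median log2 fold change of all genes from -0.04 to 0.14 with the upper quartile and to -0.23 with library totals. Over all genes the calls ranged from 5577 to 8597 against 7454, and the leave-one-out fits, in which the lone library of a group is assumed to vary like the other group, spanned that range. The supply list had 8 called genes against 5 with library totals. The germline list had 1 against 8 when 10 counts were required in every library, a rule that removes genes absent with CPI-455, and 3 to 9 with a library left out (3 without vehicle replicate 1 or without vehicle replicate 2). The list of methylated genes had 4 to 9 against 8 (4 without vehicle replicate 1). The replicate block gave -2.41 for UHRF1, -2.08 for TET3 and -1.39 for SUZ12, with 7167 genes called, and changed no call among the 10. The labels number the replicates alike, but same-numbered libraries deviated with a correlation of only 0.0496, and 2 pairs do not show a pairing. Calls of RBBP4, PHF19 (also without CPI-455 replicate 1), RING1, ASXL1, E2F1, MCM2, MCM5, HOXC12, MAGEA10, HIC1 and CDKN2A were lost under at least 1 alternative, and UHRF2, TDG, HELLS and MKI67 were called under at least 1, while UHRF2 came to -0.25 and GSTP1 to 0.042 with the length and GC dependence removed. Depth in the CPI-455 libraries limits the low genes.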

Other observations

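Other transcripts within the loci of the 10 genes were few. TET2-AS1, on the strand opposite to TET2 with no shared exon base, had 0 and 0 counts under vehicle against 13 and 5 under CPI-455 and was called higher. COX20P1, a processed pseudogene within TET1, had 6 and 5 counts against 38 and 10 and was called higher. TET2-AS1 and COX20P1 passed the filter through the CPI-455 libraries, so their calls are a description and not support for a direction. RPS3AP37, another pseudogene within TET1, had 0 and 0 counts against 19 and 0 and was not tested. S1PR2, which shares 69 exon bases with DNMT1, had 300 and 290 counts against 119 and 58 and was not called.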
